A study of Mus musculus with 8 samples.

Results

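Ubiquitin is attached to proteins by a chain of enzymes. An E1 enzyme activates it, an E2 conjugating enzyme carries it, and an E3 ligase brings the E2 to the substrate, while deubiquitinating enzymes take it off again. The Ube2 genes encode mostly E2 enzymes, the Ube3 genes encode HECT ligases, the Trim and Rnf genes encode mostly RING ligases, and the Usp genes encode mostly ubiquitin-specific proteases. In the red cell lineage this system is known for clearing proteins and organelles as the cell matures, and for chromatin marks such as ubiquitylated histone H2A and H2B. The genes described here were chosen by symbol alone: every gene whose symbol starts with Ube2 or Ube3, or with Trim, Usp or Rnf followed by a digit. That rule found 171 of the 11364 genes listed in the deposited nascent RNA tables, made up of 31 Ube2, 3 Ube3, 32 Trim, 60 Rnf and 45 Usp genes. It also found 75 of the 5551 deposited KLF1 binding sites, those whose closest transcription start site (TSS) belongs to such a gene. Below, a gene is said to have a site only where its TSS is the closest one assigned to that site. A symbol does not fix a function: Usp6nl, chosen for this remark after its values were seen, is named for its likeness to USP6 and is known as a Rab GTPase-activating protein.

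KLF1 is a zinc finger transcription factor of red cells, and the E339K change in mouse KLF1 stands for the human mutation of congenital dyserythropoietic anemia type IV. All cells were of the K1 line, an immortalised erythroid line made from Klf1-/- fetal liver, so every group lacked endogenous KLF1. K1-E339K-ER cells (CDA-KLF1-ER in the labels) carried the mutant fused to an estrogen receptor domain from an MSCV retrovirus with GFP, and K1-ER cells carried the wild type protein in the same form. The ligand 4-hydroxytamoxifen (4-OHT, 200 nM) moves either fusion into the nucleus. For ChIP there is 1 library of the mutant and 1 of its input DNA, from pooled samples of clone 2A after 3 h of 4-OHT. The series also holds 4-thiouridine (4sU) RNA libraries from 3 K1-E339K-ER clones (1B, 2A and 2B) with 4-OHT, from 2 K1 samples with 4-OHT and from 1 K1 sample with ethanol, all labelled with 500 μM 4sU for 30 min per the labels (the Methods give another dose and time). The wild type ChIP values come from earlier work of the authors, whose libraries were not analysed here. No K1-ER RNA library is in the series either, though the RNA means may include some.

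The deposited tables hold no value of any single library. The site table gives 1 concentration for wild type and 1 for mutant at each site, and the gene tables give 1 mean per gene. No error between replicates can therefore be given, library depth is unknown, and no difference below was tested. Wild type and mutant ChIP come from separate work, so protein and experiment cannot be told apart in their differences. A concentration is the log2 of the authors' mean normalized read count for a protein at a site. The lowest listed was -0.09 for wild type (1424 sites) and -0.38 for mutant (147 sites), so a difference from such a value is a lower bound, written "at least". Low concentrations came in steps: wild type values below 2 took 7 distinct values over 2393 sites, and 34 of the 75 member sites lay there. Mutant values below 1 took 9 distinct values over all sites, the second lowest being 0.05, and 7 member sites lay there. Differences are given as mutant minus wild type on this log2 scale, and a site counts as higher for a protein when the difference reaches 2, which is 4-fold.

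KLF1 binds a 9-base motif read on its G-rich strand. The pyrimidine motif, with C or T at position 5, was searched as NGGGCGTGG, NGGGCGGGG, NGGGTGTGG and NGGGTGGGG. The purine motif, with A or G at that position, was searched as NGGGAGTGG, NGGGAGGGG, NGGGGGTGG and NGGGGGGGG. Both were searched on both strands within 50 bp of each site's midpoint, and matches may overlap each other in runs of G. The windows below are examples of matches at member sites of each class. They are 29 bases of mm9 on the G-rich strand, 5′ to 3′, with the match in capitals. Windows of Ube2e3, Usp44 and Rnf19b were chosen after their values were seen. The mutant-higher windows of this list all have A at position 5, though matches with G also lay at such sites. At sites higher for the mutant:
Trim8, 135 bp upstream of the TSS, chr19:46575979-46576007, plus strand: gtgcggggacAGGGAGTGGggtctctccg
Ube2d3, 44 bp upstream of the TSS, chr3:135101665-135101693, plus strand: gaataggcggGGGGAGGGGcggagcgtgg
Ube2n, 158 bp upstream of the TSS, chr10:94977630-94977658, plus strand: ggggagcgcgGGGGAGGGGgccaccaggt
Trim33, intron, chr3:103084516-103084544, plus strand: gggagagagaAGGGAGGGGtgccggctgc
Rnf208, coding exon, chr2:25098975-25099003, minus strand: ggtgccagagTGGGAGTGGgcctgggtgc
At sites higher for the wild type:
Trim24, 298.5 bp upstream of the TSS, chr6:37820512-37820540, plus strand: ccccgcccctTGGGCGGGGccatagcggc
Usp28, 256 bp upstream of the TSS, chr9:48793212-48793240, plus strand: gcagagtgtaTGGGCGGGGccaccggggc
Usp12, 209 bp upstream of the TSS, chr5:147606692-147606720, plus strand: agtgcgcgttGGGGCGGGGcgagacccgt
Usp25, intron, chr16:77060632-77060660, minus strand: acccccaggcAGGGCGGGGcctcactacc
Usp44, intron, chr10:93296472-93296500, plus strand: ggacagccaaGGGGCGTGGcctcgcgcgg
Ube2e3, intergenic, chr2:78556468-78556496, minus strand: agagagctacAGGGCGGGGgcggggcagg
Rnf19b, intergenic, chr4:128725141-128725169, minus strand: cccggagaggAGGGTGTGGcctttgattt

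Sites near these genes were more often higher for KLF1-E339K-ER than for KLF1-ER, in shares close to those of the whole site table. The mutant was at least 4-fold higher at 43 of the 75 member sites (57.3%), against 55.3% of all sites. The wild type was at least 4-fold higher at 14 (18.7%), against 23.3% of all sites. The remaining 18 (24%) lay within 4-fold, against 21.4%. These shares are near the background, so nothing here sets the members apart as a list. The median difference was 2.81 over the member sites and 2.60 over all sites. At the 43 mutant-higher sites the median concentration was 0.91 for wild type and 5.53 for mutant, and at 17 of them the wild type was at its lowest listed value. At the 14 wild type-higher sites the medians were 5.18 for wild type and 1.42 for mutant, and the mutant was at its lowest at 2. The lowest listed wild type value was found at 22.7% of member sites and 25.7% of all sites. The sites nearest to the 4-fold limit were those of Trim56 (2.31, named after its values were seen) and Rnf141 (-2.21) just beyond it, and of Trim8 (1.90) and Rnf44 (-1.97) just within it.

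**Figure D1:**
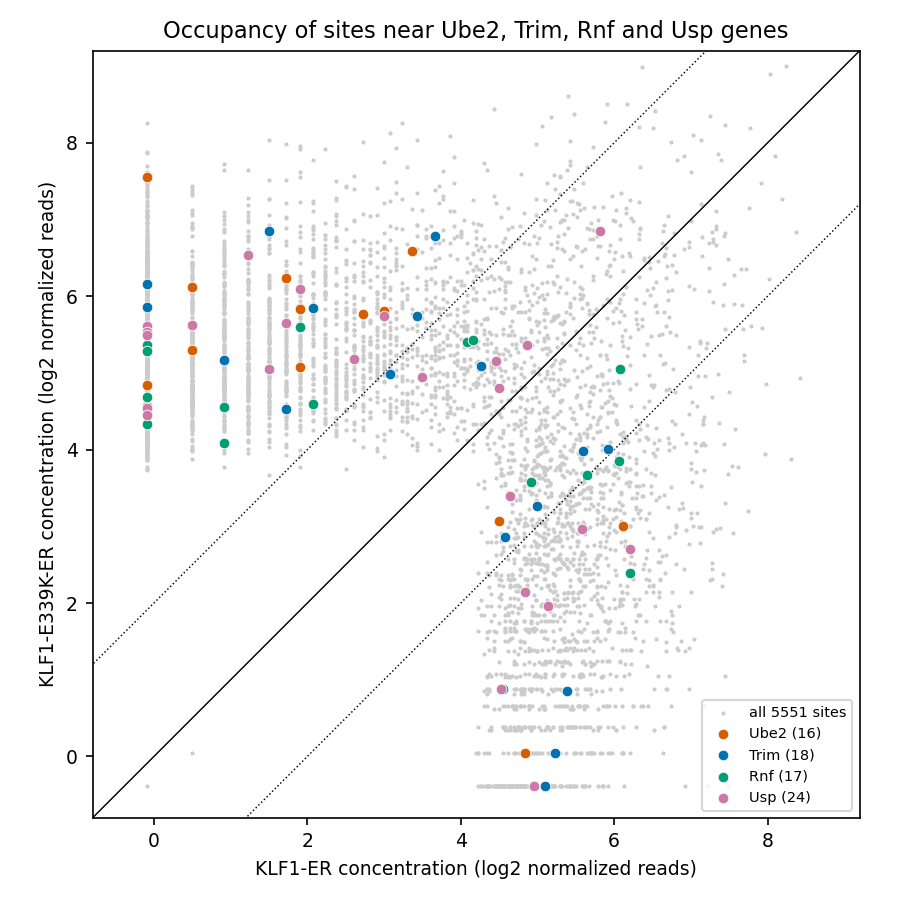
Each point is a site, with its wild type KLF1-ER concentration on the x axis and its KLF1-E339K-ER concentration on the y axis, both as log2 normalized reads; grey points are all 5551 sites and coloured points are the 75 member sites by gene family. The solid line marks equal values and the dotted lines 4-fold; 43 member sites lie above the upper dotted line, 14 below the lower one and 18 between them, and the columns of points at the left are the steps of low wild type values.

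The counts by family rest on few sites each, with sites of 1 gene counted singly. Over all sites, 55.3% were higher for the mutant, 23.3% for the wild type and 21.4% within 4-fold. Of 16 Ube2 sites, 13 were higher for the mutant, 2 for the wild type and 1 lay within 4-fold, with a median difference of 3.92. Of 18 Trim sites the counts were 9, 3 and 6 in the same order, with a median of 2.10. Of 17 Rnf sites they were 9, 3 and 5, with a median of 2.52, and of 24 Usp sites 12, 6 and 6, with a median of 2.01. No site was assigned to Ube3a, which encodes the HECT ligase E6AP, or to Ube3b or Ube3c. The differences between families were not tested.

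The E2 enzymes carried the highest mutant value of the member sites. At Ube2h, which encodes an E2 that is abundant in maturing red cells, a site in the first part of the gene (chr6:30253678-30254106, intron, 647 bp downstream of the TSS) was listed at -0.09 for wild type and 7.55 for mutant. That is a difference of at least 7.64, or at least 199-fold. A second Ube2h site 3350.5 bp upstream of the TSS (chr6:30257737-30258042) had 3.37 for wild type and 6.59 for mutant, so both sites of this gene were higher for the mutant. Neither Ube2h site held a match to either motif in the window searched.

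Promoter sites of 4 other E2 genes were also higher for the mutant. In the 5′ region of Ube2r2, an E2 that works with cullin ligases, the wild type was at 0.50 and the mutant at 6.12 (chr4:41082658-41082971), where 5 purine matches lay, 3 on the minus strand and 2 on the plus strand. Ube2n, the E2 for lysine 63 chains in DNA repair and immune signalling, had 0.50 and 5.30 in the same order at chr10:94977473-94977803. That site held 2 purine matches and 1 pyrimidine match. Ube2d3, a widely used E2, had 1.91 and 5.08 at chr3:135101525-135101833, with the purine match shown above centred on the midpoint of the site. Its relative Ube2d2a had 3.00 and 5.81 at a site 699.5 bp downstream of the TSS and -0.09 and 5.29 at another 13696.5 bp upstream, both on chromosome 18. The TSS nearest to the upstream site in GENCODE is that of Gm16490. Ube2o, a joint E2 and E3 that removes ribosomes and unpaired globin in reticulocytes, had a site in an intron at -0.09 for wild type and 4.84 for mutant.

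The E2 enzymes of the anaphase-promoting complex, which mark cell cycle proteins for destruction, had sites of opposite kind. Ube2c, which starts the chains, had an intronic site at 4.84 for wild type and 0.05 for mutant (chr2:164599488-164599809), a difference of -4.79. Ube2s, which extends them, was the closest TSS of a site with -0.09 for wild type and 4.57 for mutant (chr7:4777254-4777587). That site lies 13478.5 bp from Ube2s in a UTR of Shisa7, whose TSS is nearer in GENCODE. Ube2l6, the E2 for the ubiquitin-like protein ISG15, was within 4-fold at its promoter (chr2:84638788-84639155), with 4.50 for wild type and 3.07 for mutant. Both sites of Ube2ql1, 36554.5 and 47463.5 bp downstream of its TSS, had a wild type value of 1.91, with 5.83 and 5.84 for mutant.

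Among the Trim genes, Trim24, Trim28 and Trim33 belong to the TIF1 group of chromatin regulators and did not show 1 pattern. Trim24 (TIF1 alpha) had 5.10 for wild type and the lowest listed mutant value, -0.38, at its promoter (chr6:37820349-37820676), a wild type excess of at least 5.48 on the log2 scale. This was the most negative difference of the member sites, and 2 pyrimidine matches on opposite strands lay near its midpoint. Trim33 (TIF1 gamma), a gene required for red cell formation in zebrafish, had 0.91 and 5.17 in an intron 1313.5 bp downstream of its TSS (chr3:103084371-103084688). Trim28 (KAP1, the corepressor of KRAB zinc finger proteins) was the closest TSS of no site. Trim3, a relative of Trim2, resembled Trim24, with 5.23 for wild type and 0.05 for mutant at its promoter (chr7:112782104-112782410), though with no match to either motif. Trim59 was wild type-higher too, with 5.39 and 0.85 at a site 10181 bp upstream (chr3:68858690-68859000). Trim44 was within 4-fold at its promoter (5.00 and 3.27).

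In the other direction, Trim71, known as LIN-41 and an RNA-binding ligase of early development, was the closest TSS of a site with -0.09 for wild type and 5.86 for mutant, 20105.5 bp upstream (chr9:114493437-114493748). It is not among the listed nascent genes, and neither is Trim14, whose intronic site had 5.92 for wild type and 4.01 for mutant. Trim7 had 2.08 and 5.84 at 912.5 bp from its TSS, where the TSS of Gm12184 is nearer. Trim2 had 1.72 and 4.53 at a site 10712.5 bp upstream. The site near Trim56 lies in an intron of Muc3, and its values of 3.43 and 5.74 stand here only as that of the nearest assigned TSS.

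Of the Rnf genes, 7 promoter sites divided into 4 higher for the mutant, 2 for the wild type and 1 within 4-fold. Over all promoter sites, 50.5% were higher for the mutant and 24.7% for the wild type. In the coding exon of Rnf208 the wild type was at -0.09 and the mutant at 5.50 (chr2:25098806-25099194), over the purine match shown above. Rnf166 had -0.09 at both of its sites, with 5.37 for mutant near the TSS it shares with Ctu2 (chr8:124998980-124999445) and 5.29 in a later intron. Rnf111 (Arkadia, which removes inhibitors of TGF-beta signalling) had 0.91 and 4.09, the lowest mutant value of the 43 mutant-higher member sites. Rnf5, a ligase of the endoplasmic reticulum, had 2.08 and 4.60 at a site whose nearer TSS is that of Agpat1 (chr17:34741169-34741520). The wild type-higher promoters were those of Rnf19a (6.20 for wild type and 2.39 for mutant, chr15:36212987-36213303) and Rnf141 (6.06 and 3.85, chr7:117987341-117987654).

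The Usp genes had the most promoter sites, 14, of which 6 were higher for the mutant, 3 for the wild type and 5 within 4-fold. The shares over all promoter sites were 50.5% for the mutant and 24.7% for the wild type. Usp16, a protease of histone H2A, had -0.09 for wild type and 5.53 for mutant 37.5 bp upstream of its TSS (chr16:87455041-87455344), and Usp21, which also acts on H2A, had 1.23 and 6.54 in its 5′ region (chr1:173217712-173218092). Usp7 (HAUSP, which acts on Mdm2 and p53) had -0.09 and 5.61 in an intron (chr16:8737773-8738089). Usp9x, on the X chromosome, had 1.91 and 6.09 at 722.5 bp upstream. Of these 4 sites, only that of Usp21 held a match, to the pyrimidine motif. All 4 sites of Usp2, a protease of cyclin D1 with a daily rhythm, were higher for the mutant. Their mutant values were 4.54, 5.74, 5.49 and 5.18 along the gene, against wild type values of -0.09, 3.00, -0.09 and 2.61.

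Usp12 and Usp46 encode close relatives that share the cofactor UAF1, and their promoters differed. At Usp12 the wild type was higher, with 6.21 against 2.71 for mutant (chr5:147606589-147606893). At Usp46 a site 982 bp downstream of the TSS had 1.72 for wild type and 5.65 for mutant (chr5:74463234-74463674), while another 386 bp downstream had 4.46 and 5.15. Usp25 and Usp28 are also close relatives. Both Usp25 sites, in introns, were higher for the wild type, at 4.95 and -0.38 (chr16:77024601-77024932) and at 5.58 and 2.96 (chr16:77060494-77060796). Usp10, which acts on p53, had a 5′ UTR site at 4.53 for wild type and 0.88 for mutant (chr8:122434351-122434656). Usp32, Usp34 and Usp45 were within 4-fold at their promoters: the Usp32 sites had differences of 1.04 and 0.51, that of Usp34 had 0.30 and that of Usp45 had -1.24.

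The share of sites at promoters was also near the background. The midpoint lay within 1 kb of the TSS at 32 of the 75 member sites (42.7%), against 39.5% of all sites, and within 10 kb at 51 (68.0%), against 67.6%. Of the 32 promoter sites, which belong to 30 genes, 18 lay upstream and 14 downstream of the TSS. The mutant was higher at 17 (53.1%), against 50.5% of all promoter sites, and the wild type at 7 (21.9%), against 24.7%. By the GENCODE annotation, 31 of the 75 midpoints lay in introns, 30 in intergenic sequence, 12 in UTRs and 2 in coding exons. At 8 of them the nearest protein-coding TSS in GENCODE was of another gene than the one assigned, and 4 had the TSS of another protein-coding gene within 1 kb. The G and C content of the central 101 bases had a median of 62.4% at member sites and 63.4% at all sites.

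**Figure D2:**
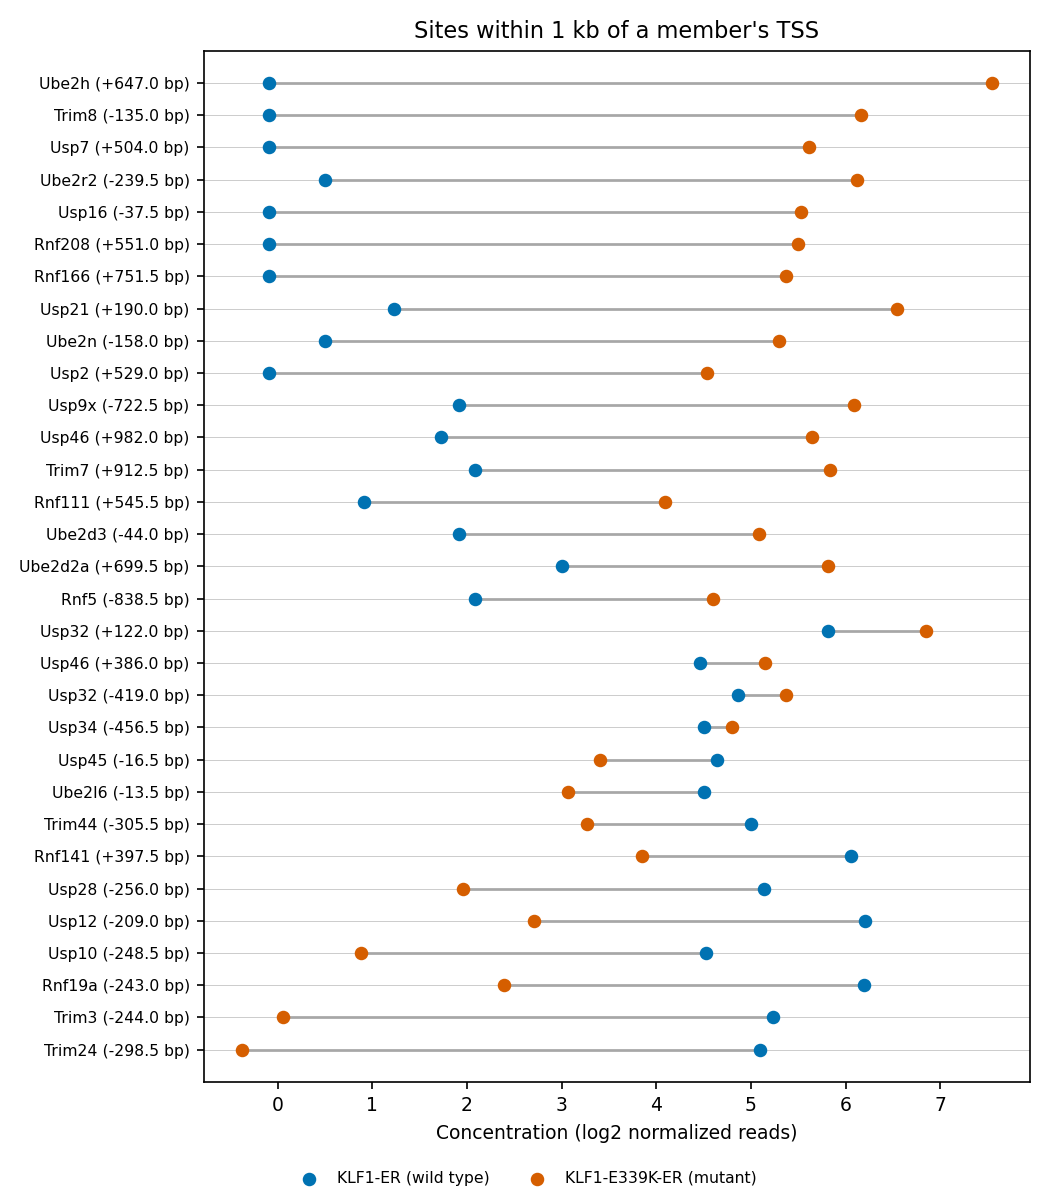
Rows are 31 of the 32 member sites within 1 kb of the TSS, ordered by mutant minus wild type; the x axis is the concentration in log2 normalized reads, with blue points for KLF1-ER, orange points for KLF1-E339K-ER and the distance of the midpoint from the TSS in brackets. The top 17 rows, Ube2h to Rnf5, are at least 4-fold higher for the mutant, the bottom 7, Rnf141 to Trim24, for the wild type, and each point is 1 deposited value with no error.

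Sites of the same gene did not always differ in the same direction. At least 2 sites were assigned to 14 members, 34 sites in all. In 5 of these genes every site was higher for the mutant (Rnf166, Ube2d2a, Ube2h, Ube2ql1 and Usp2), while Usp25 was the gene with every site higher for the wild type. Of the 20 pairs of neighbouring sites of the same gene, 6 had differences of opposite sign, though only Usp28 and Rnf19a had sites past 4-fold each way. The same counts were not made over all genes, so they do not set the members apart.

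At Usp28, which stabilises c-Myc, the promoter site (chr9:48793076-48793392) had 5.14 for wild type and 1.96 for mutant, a difference of -3.18. A site 4406 bp away, 4662 bp upstream of the TSS (chr9:48788671-48788985), had 1.5 and 5.05, a difference of 3.55. The promoter held the single pyrimidine match shown above. The upstream site held 6 overlapping purine matches in 1 run of G, of which the most central is printed here.
Usp28 upstream, chr9:48788813-48788841, plus strand: gggtctggggGGGGGGGGGagggaaggct

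At Rnf19a, a RING-between-RING ligase, the promoter was wild type-higher, at -3.81, and sites 98098 and 106216 bp upstream were mutant-higher, at 3.69 and at least 4.43. The TSS nearest to both upstream sites in GENCODE is that of Rpl7a-ps3. Trim33 had 2 sites 861 bp apart in intergenic sequence, 105850 and 106712 bp downstream of its TSS. The first (chr3:103188891-103189242) had 1.5 for wild type and 6.85 for mutant, and the second (chr3:103189751-103190104) had 4.58 and 2.86, which are differences of 5.35 and -1.72.

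Trim8, a ligase of cytokine signalling, had 4 sites. Those 1381 and 135 bp upstream of the TSS were mutant-higher, with 3.67 and 6.79 at the first and -0.09 and 6.16 at the second (chr19:46575843-46576163). The site 2173.5 bp downstream, in an intron, went the other way within 4-fold, with 5.60 for wild type and 3.98 for mutant, and a site 16952.5 bp downstream had 3.08 and 4.98. At Rnf44, 2 sites 934 bp apart in its UTR had differences of -1.97 and 1.27, and the first held 3 pyrimidine matches and the second none. Trim25, a ligase of the RIG-I antiviral pathway, had sites at 0.82 and at least 4.55, both beyond 10 kb from its TSS.

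**Figure D3:**
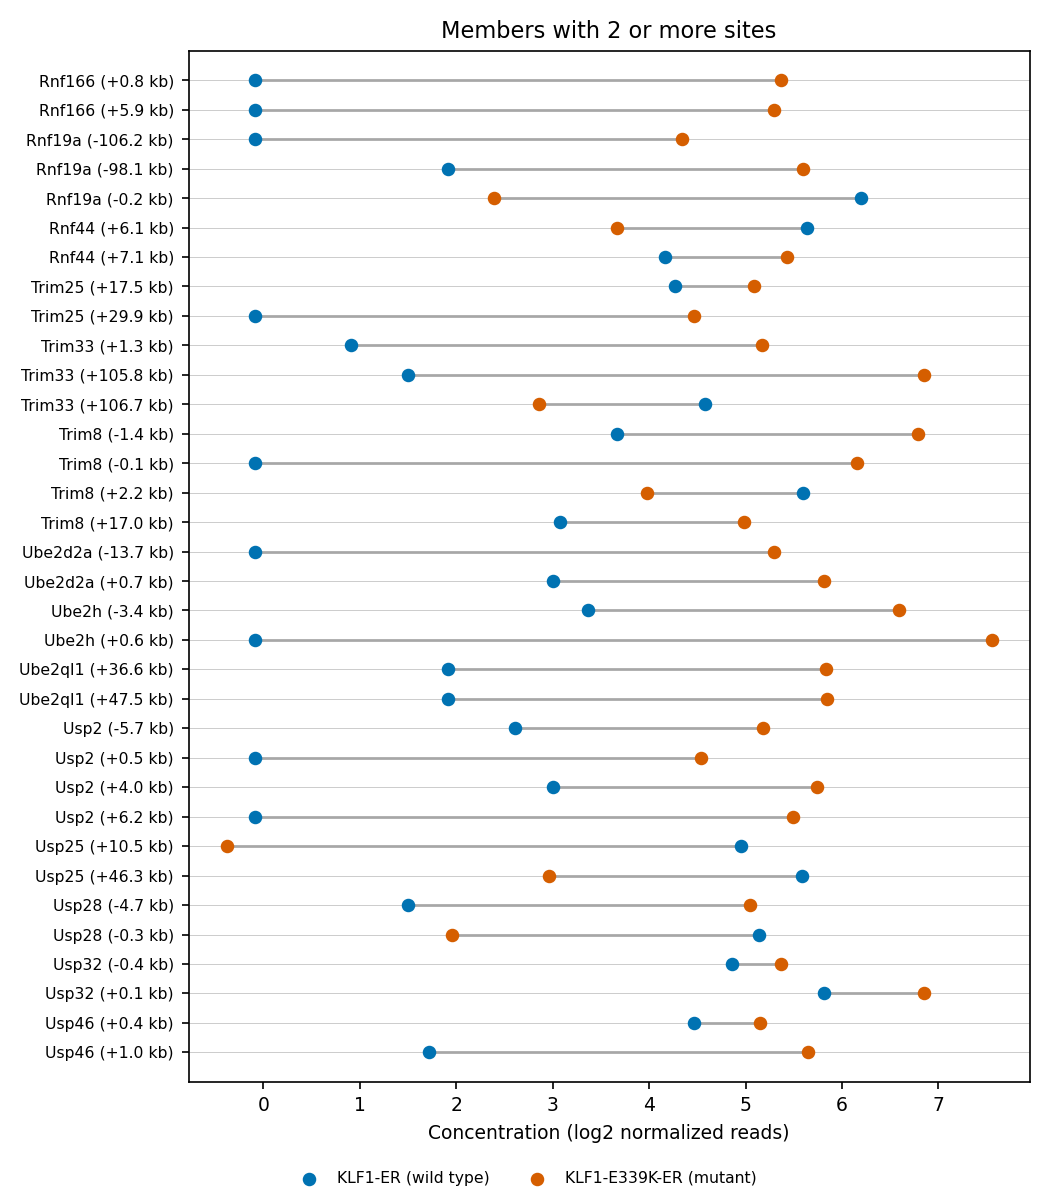
Rows are the 34 sites of the 14 members with 2 or more sites, grouped by gene with the distance of each midpoint from its TSS in kb; the x axis is the concentration in log2 normalized reads, blue for KLF1-ER and orange for KLF1-E339K-ER. The order of the colours turns over within Rnf19a, Rnf44, Trim33, Trim8 and Usp28, and is kept across all 4 sites of Usp2. Distances are to the TSS closest to each site, which can differ within a gene. The Usp2 site at -5686.5 bp lies past the other Usp2 sites along the gene.

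The motifs followed the classes at member sites as over the whole table. A purine match lay within 50 bp of the midpoint at 20 of the 43 mutant-higher member sites (46.5%), against 46.3% of all mutant-higher sites. A pyrimidine match lay at 7 of them (16.3%), against 21.8%. Among the 14 wild type-higher member sites, 8 had a pyrimidine match (57.1%), against 62.8%, and 0 had a purine match, against 15.1%. A count of 0 of 14 leaves room for a share of up to 21.5% by the Wilson 95% interval, which covers counting error only. Of the 18 sites within 4-fold, 13 had a pyrimidine match (72.2%), against 40.2%, and 7 a purine match (38.9%), against 30.1%, on 18 sites and with no test. A promoter site within 4-fold held both motifs at Usp32, Usp34 and Usp46 each, while the other such Usp32 site held the pyrimidine motif alone, and the windows of Usp34 show them side by side.
Usp34, 456.5 bp upstream of the TSS, chr11:23206386-23206414, plus strand, purine: gagcgcgcacAGGGGGTGGaccgagggcg
Usp34, the same site, chr11:23206399-23206427, plus strand, pyrimidine: gggtggaccgAGGGCGGGGaggccggacg

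Read by position 5 over the 86 matches at member sites, leaving out chromosome 18, the 47 matches at mutant-higher sites had A in 17, G in 22, T in 7 and C in 1. The 13 matches at wild type-higher sites had C in 12 and T in 1. The 26 matches at sites within 4-fold had A in 5, C in 11, G in 3 and T in 7. Matches in a run of G are counted more than once, as at Usp28, Trim2 and Ube2r2, which raises the count of G at mutant-higher sites. Of the 86 matches, 57 were centred within 20 bp of the midpoint. These counts of matches were not made over all sites. No match of either kind was found at 29 of the 75 member sites, and at 2340 of all 5551 sites. Such member sites include the promoter sites of Ube2h, Usp7, Usp16, Usp9x, Usp10, Trim3 and Rnf19a. A site without a match says only that these letters are not in the window searched.

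**Figure D4:**
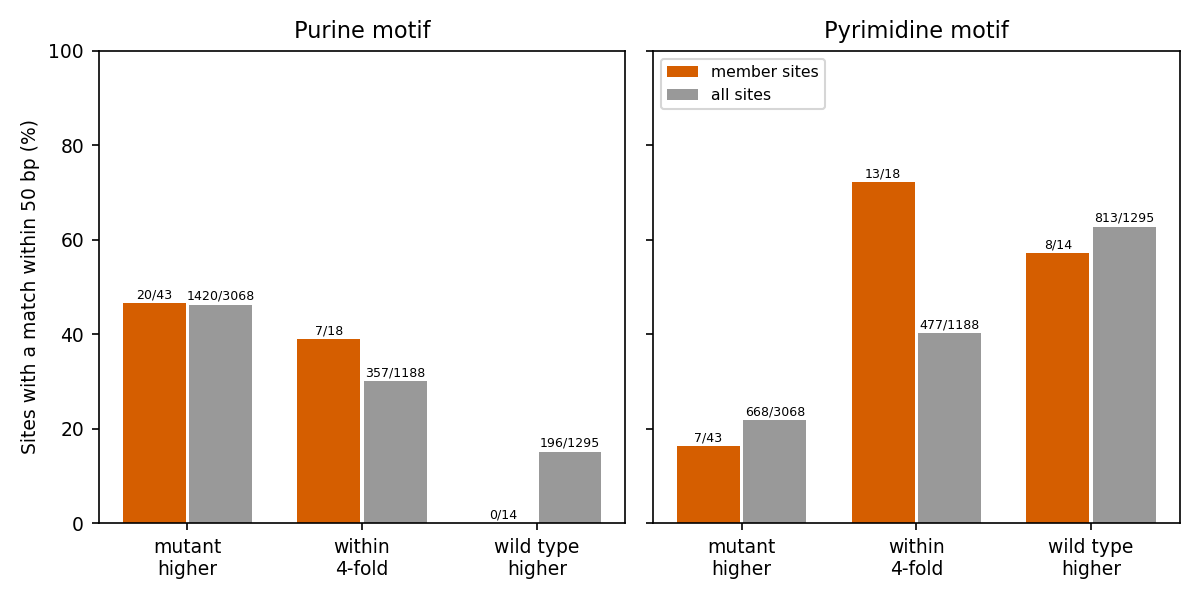
Bars give the percentage of sites with at least 1 match to the purine motif (left) or the pyrimidine motif (right) within 50 bp of the midpoint, for member sites (orange) and all sites (grey) in each occupancy class, with counts above the bars. Purine matches stand at 20 of 43 mutant-higher and 0 of 14 wild type-higher member sites, and pyrimidine matches at 7 of 43 and 8 of 14.

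The nascent RNA of these genes was measured as 1 mean per gene over all libraries of the authors' fit, so levels cannot be given per line or clone. That mean was the same in the K1-ER and K1-E339K-ER tables. The series holds no K1-ER RNA library, so the mean may include libraries from outside it. Which libraries entered it is not given. In such bulk samples, fewer cells of a type and less RNA per cell cannot be told apart. The level used between genes is the mean log2 CPM minus log2 of the listed length in kb. Its median was 1.13 for the 171 members and 0.82 for all 11364 genes. By family the median was 1.73 for Ube2, 1.30 for Ube3, 0.23 for Trim, 1.12 for Rnf and 1.44 for Usp. The per-kb levels ran from -6.04 to 5.68 in Trim genes and from -6.42 to 4.46 in Rnf genes, while those of the 3 Ube3 genes lay between 1.27 and 2.14.

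The 5 members with the highest per-kb level were Trim28 at 5.68, Ube2c at 5.13, Rnf26 at 4.46, Ube2s at 4.45 and Ube2m (the NEDD8 E2) at 4.40. Only Ube2c of these had an assigned KLF1 site within 10 kb of its TSS. The 5 lowest were Rnf150 at -6.42, Trim9 at -6.04, Trim29 at -5.30, Trim2 at -4.88 and Usp29 at -4.14, and none of them had such a site. The level of Usp29 rests on a listed length of 236480 bp, while the GENCODE gene of that name runs from 6913871 to 6916480 on chromosome 7. Those of Ube2c and Rnf26 rest on 2974 and 2271 bp, while their GENCODE genes run from 164595398 to 164604322 on chromosome 2 and from 43874410 to 43921600 on chromosome 9. In RefSeq the lengths of Usp29, Ube2c and Rnf26 are 236662, 2974 and 2271 bp, near or equal to those listed.

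The erythroid genes stood between percentiles 43.9 and 83.8 of all listed genes by per-kb level. Trim10, a ligase of red cell precursors, was at 2.96, Rnf123 (KPC1) at 2.54, Ube2o at 2.00, Ube2h at 0.84 and Trim58, which removes nuclear dynein in late erythroblasts, at 0.48. Of these 5 genes, Ube2h and Ube2o had sites, 3 in all and each mutant-higher, as were 55.3% of all sites. The ISG15 E2 Ube2l6 was at 1.98, the NEDD8 E2 Ube2f at 0.64 and the ISG15 protease Usp18 at -2.31. Of these and Ube2m, Ube2l6 alone had a site.

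Among the 11 chromatin genes, per-kb levels ran from 0.50 (Ube2a, the E2 for histone H2B) to 5.68 (Trim28). The H2B ligase subunits Rnf20 and Rnf40 were at 2.94 and 3.76, the H2B E2 Ube2b at 0.79, the Polycomb ligase Rnf2 at 0.67 and the SAGA protease Usp22 at 0.72. Usp7 was at 2.45, Usp16 at 1.57, Trim33 at 1.48 and Trim24 at 0.76. Sites were assigned to 4 of the 11, namely Usp16, Usp7, Trim24 and Trim33, with 4 of their 6 sites mutant-higher (55.3% of all sites), 1 wild type-higher (23.3%) and 1 within 4-fold. In DNA repair, Usp1 was at 3.16, Rnf8 at 1.40, Rnf168 at 0.64, Ube2n at 0.33 and Ube2t at -0.37, and Ube2n alone had a site. Of the interferon-response genes Trim25 was at 3.00 and Trim21 at -3.07, and Trim30a and Trim34a were not among the listed genes. Ube3a was at 1.30.

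Of the 171 members, 39 (22.8%) were the closest TSS of a KLF1 site within 10 kb, against 21.2% of all listed genes. Genes near a site that was assigned to another gene are not counted. By family this was 14 of 45 Usp genes, 9 of 31 Ube2 genes, 10 of 60 Rnf genes, 6 of 32 Trim genes and 0 of 3 Ube3 genes. The per-kb level had a median of 1.57 in the 39 members with such a site and 1.02 in the other 132. Over all listed genes the same medians were 1.29 and 0.69, which is the same order. Members with a site were also longer, with a median of 43.2 kb against 24.7 kb, while over all genes these were 20.5 and 21.1 kb.

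**Figure D5:**
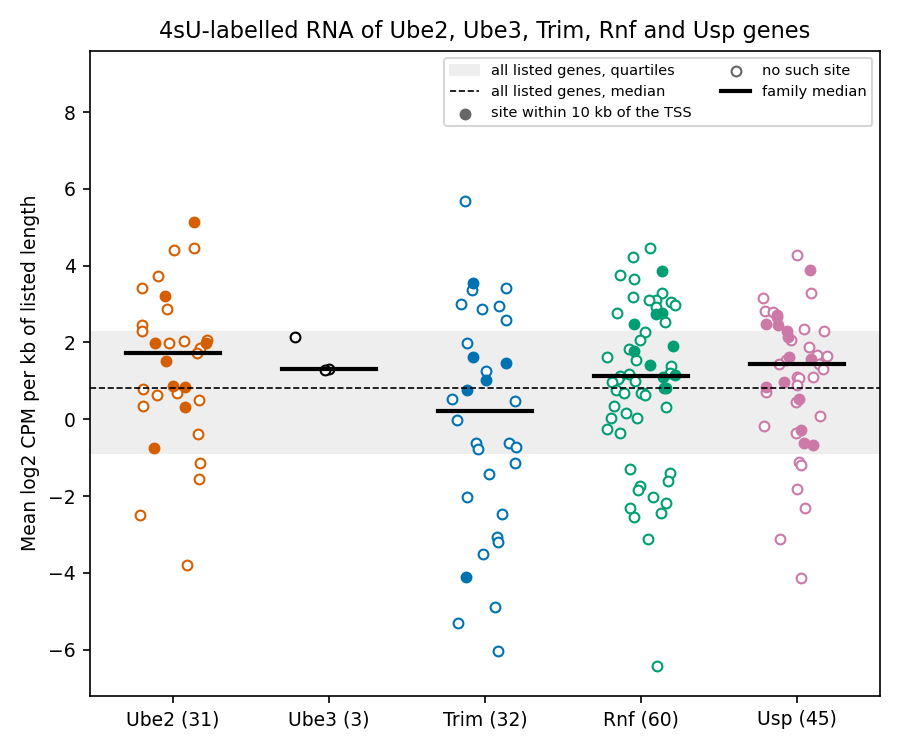
Each point is 1 of the 171 members by family, with its mean log2 CPM per kb of listed length on the y axis. Filled points have an assigned KLF1 site within 10 kb of the TSS, open points have none assigned, and black bars are family medians. The dashed line and grey band give the median and quartiles of all 11364 genes; the Trim median of 0.23 lies below the line at 0.82, and the Ube2 median of 1.73 above it.

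The rest of the ubiquitin system was read from a list of 85 other genes, of which 81 were listed. An assigned site within 10 kb was found for 21 of them (25.9%), against 21.2% of all listed genes. They had 24 such sites, 14 higher for the mutant (58.3%, against 53.9% of all sites within 10 kb), 6 for the wild type (25%, against 22.8%) and 4 within 4-fold, which is near the background. None of the 8 E1 genes had one. Fbxw7, an SCF substrate receptor and the partner through which Usp28 acts on c-Myc, had a promoter site at -0.09 for wild type and 6.85 for mutant, and one 11295.5 bp upstream at 5.04 and -0.38. Brca1 and Bard1, whose proteins form 1 ligase, differed at their promoters, with -0.09 for wild type and 4.83 for mutant at Brca1 and 4.91 and 0.88 at Bard1. Mdm2 had -0.09 and 4.48 upstream of its TSS, and its relative Mdm4 had 5.14 and 0.39.

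The labelled cell type was checked against markers of red cells and of other lineages. All 10 erythroid markers were listed, with mean log2 CPM from 5.29 (Alas2) to 10.8 (Zfpm1). Of 5 markers each, 2 megakaryocyte, 2 myeloid, 2 stromal, 0 lymphoid and 0 hepatocyte markers were listed. The other-lineage markers ranged from -1.69 for Col1a1 to 5.30 for Itga2b, and their part in any level above was not tested.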

How the data were processed

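Sequencing was on the Ion Proton, and the authors aligned reads to mm9 using TMAP for both assays and TopHat2 2.0.10 for RNA as well. They removed RNA reads of low mapping quality and duplicate or multi-mapped ChIP reads. The authors deposited log2 values: the mean log2 CPM of each gene from limma-voom, and the log2 concentration of wild type and mutant at each site from DiffBind. Gene length, site position and TSS distance were deposited in base pairs. Versions of limma and DiffBind and the gene annotation are not given in the sources used here. The 3 deposited tables also hold the authors' own comparisons (fold changes, t, p-values, FDR, pooled concentration), which were not used, so no change of nascent RNA between lines is reported. Depth per library is unknown.

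Members were found by symbol in the K1-ER table and paired with the K1-E339K-ER table by Entrez identifier, length and mean expression, and all 171 paired. Usp31, Trim45 and Usp16 carry the symbols Usp48, Ptgfrn and Usp21 in the second table, with the Entrez identifiers of those genes. Their listed lengths (65233, 14433 and 28529 bp) are close to those of Usp31, Trim45 and Usp16 in RefSeq (65441, 15723 and 28531 bp), but the tables disagree, so the identity of the row behind the Usp16 level is uncertain. The deposited distance equalled TSS minus midpoint in chromosome direction, within 100 bp, at 4619 of 4896 sites whose gene has a GENCODE M1 start, and was turned to the direction of the gene. Sequence came from NCBIM37 (mm9), and none is shown for chromosome 18. A few items are not reported here. The motif search was checked on motifs planted in simulated sequences of A and T. That covers the reading of place, strand and base, not the frequency of matches in G-rich sequence.

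Python 3.11.15, pandas 2.3.3 and matplotlib 3.10.9 were used. Members and lists were chosen with earlier results of these data known. Named are members with a site within 1 kb of the TSS, the 5 largest and 5 smallest differences, members with several sites, the 5 highest and 5 lowest levels, and genes chosen by role. Ube2e3, Usp44, Rnf19b, Trim56, Trim14 and Usp6nl, and single genes of the 85-gene list, were named after their values were seen. Alternatives were other thresholds, distances, windows and filters.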

Additional observations from a re-analysis of the deposited data

How the results depend on the processing

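No paired analysis was possible because the tables hold no value per library, and for the same reason no replicate could be left out. Of 39 alternative values, 30 stayed within the 95% Wilson interval of the share reported, or within 1.5 times for the level and 9 moved beyond it. With a 2-fold limit the wild type was higher at 30.7% of member sites, against 28.7% of all sites, which turns the order of 18.7% against 23.3%. Within 500 bp of the TSS lay 28.0% of member sites, against 30.2% of all, which turns the order of 42.7% against 39.5% within 1 kb. A purine match at mutant-higher sites was found in 69.8% (all sites: 60.3%) when the window was 100 bp to each side and in 76.7% (69.8%) over the whole site, and a pyrimidine match in 34.9% (32.8%) and 48.8% (45.6%), which turns the order of 16.3% against 21.8%. Over the whole site, 35.7% of wild type-higher sites had a purine match (all: 29.8%), so the 0 of 14 holds for the narrow window. Within 1 kb, 47.1% of the sites of the other ubiquitin genes were mutant-higher (all: 50.5%), against 58.3% and 53.9% within 10 kb. Within 100 kb, 29.8% of members had an assigned site (all: 26.1%). Without division by length the members' median lay 0.712 above that of all genes, against 0.313 with it. Wider limits take in more sequence or genes by construction. Taking 1 site per gene, or only sites whose nearest GENCODE TSS is of the same gene, both chosen after seeing the data, gave 52.7% and 52.2% mutant-higher, against 53.8% and 54.8% of all sites, which turns the order of 57.3% against 55.3%. The steps of low concentrations and the single value per protein limit how finely sites can be compared.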
